A study of Mus musculus with 8 samples.

Results

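The phagocyte NADPH oxidase was examined through the mRNA of 5 of its subunit genes in CDPs, the DC-restricted progenitors of the BM: Cybb and Cyba, which form its membrane core, Ncf1 and Ncf4, which act from the cytosol, and Rac2, its small GTPase. The genes were chosen by symbol, and all 5 were found among the 16119 genes of the count table. Cells had been sorted as Lin-, c-kit intermediate, Sca1 low, CD115+ and Flt3+, about 50000 for each library, from C57BL/6 mice (C57BL/6J in the methods) of the diet-induced obesity (DIO) model. HFD mice received 60 kcal% fat, with 16 weeks of diet in the labels. CF mice, labelled DIO-Control and matched for age, received chow with 10 kcal% fat. Each diet had 4 libraries, described in the methods as independent replicates, and it is not stated whether a library came from 1 mouse or from several, so the p-values measure the spread between these libraries. DIO here is a model made by diet, and no allele or transgene is named for either diet. The study followed ROS in CDPs on HFD. The question taken here was whether the transcripts of an enzyme that makes ROS differed with it.

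In phagocytes the oxidase takes electrons from NADPH in the cytosol, passes them through a flavocytochrome in the membrane and gives them to oxygen, which becomes superoxide. Cybb encodes gp91phox, the subunit that carries the electrons, and Cyba encodes p22phox, its partner that keeps it stable and offers a docking site. At rest the cytosolic subunits stay apart from the membrane, and on activation Ncf1 (p47phox), Ncf4 (p40phox) and Rac2 bound to GTP join the core. Neutrophils, monocytes and macrophages are known for high levels of this enzyme, and loss of a core or cytosolic subunit causes chronic granulomatous disease.

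None of the 5 genes differed between HFD and CF CDPs in edgeR's quasi-likelihood test (0 of 5 at an adjusted p below 0.05, over 15837 genes tested). At an unadjusted p below 0.05 the count was also 0, where 8.56% of all genes passed. It was 0 as well with DESeq2, which called 3.6% of all genes, with limma voom (0.442%), with limma voom and sample quality weights (1.78%) and with a linear model on log2(CPM + 1) (0.0%). With shares of this size, a count of 0 among 5 genes is near the background. Over all genes 0.423% passed the edgeR test, 67 genes, and all 67 were lower in HFD. For each of the 5 genes the 2 diets overlapped in CPM (counts scaled to the size of each library, TMM-normalized), whereas 6.16% of all genes tested had no overlap. The 5 fitted log2 fold changes, HFD against CF, were between 0.08 and 0.42, beside a median of 0.055 over all genes. HFD 1 had the highest CPM of the 8 libraries for all 5 genes, and the sign of the difference for Cybb, Cyba, Ncf1 and Ncf4 turned when this library was left out.

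The libraries held between 28203651 and 48409689 counts, and the lowest count of any of the 5 genes in any library was 589. Transcripts of the sort gate were present in both diets. Flt3 had 251 ± 123 CPM in HFD and 265 ± 42.5 CPM in CF (SD, n = 4), Csf1r, which encodes CD115, 97.4 ± 14.2 and 115 ± 14.7 CPM, Kit 42.6 ± 8.82 and 47.9 ± 5.25 CPM, and Ly6a, which encodes Sca1, 2.96 ± 0.333 and 2.27 ± 0.613 CPM. HFD 1 stood apart in Flt3, at 88.8 CPM, where the other 7 libraries had 228 to 378 CPM, and it was within their range for Csf1r, Kit and Ly6a. Genes of mature neutrophils, which a lineage-negative gate would leave out, were also present and differed widely between libraries. The summed CPM of 15 such genes was between 1009 and 21190 in HFD and between 2040 and 6781 in CF, and none of the 15 was at 0 in all libraries. HFD 1 was highest in all 15 of these genes, as it was in the 5 subunits. The mean log2 CPM of the list was 9.20, 6.53, 5.24 and 4.88 in HFD 1 to 4 and 5.91, 7.46, 7.46 and 7.36 in CF 1 to 4. In bulk RNA of sorted cells, a smaller number of cells of one type and less RNA in each cell cannot be told apart.

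Cybb (ENSMUSG00000015340) lies on chromosome X at 9435252 to 9487771 on the minus strand (GRCm38, GENCODE vM21), and its longest transcript has 13 exons. It had 581, 181, 63.9 and 85.7 CPM in HFD 1 to 4, and 83.3, 224, 203 and 172 CPM in CF 1 to 4. HFD 1 stood above every other library, 2.59 times the next one, and HFD 3 was the lowest of all 8, so that the HFD libraries enclosed all CF libraries. The span from the lowest to the highest library was 9.09-fold, the widest of the 5 genes. The mean was 228 ± 241 CPM in HFD and 171 ± 62.1 CPM in CF (SD, n = 4). The fitted log2 fold change was 0.42 (SE 0.67, edgeR adjusted p = 0.936), and the difference between the mean log2 CPM of the diets was -0.04 (exact permutation test, two-sided, p = 0.943). The fitted value follows mean counts and the second the mean of logs, and here they differed in sign. Without HFD 1 the fit gave -0.63 (edgeR adjusted p = 0.539).

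Cyba (ENSMUSG00000006519) lies on chromosome 8 at 122424776 to 122432930 on the minus strand, with 6 exons in its longest transcript. It had 51.3, 24.9, 15.5 and 22.3 CPM in HFD 1 to 4, and 16.6, 33.8, 26.3 and 26.0 CPM in CF 1 to 4. The order of the libraries was nearly that of Cybb, with HFD 1 on top, then CF 2 and CF 3, and with CF 1 and HFD 3 at the bottom. The mean was 28.5 ± 15.7 CPM in HFD and 25.7 ± 7.01 CPM in CF (SD, n = 4), and the log2 fold change 0.15 (SE 0.37, edgeR adjusted p = 0.965). The exact permutation test of its log2 CPM gave p = 1.0. Without HFD 1 the fitted value was -0.30 and without CF 1 it was -0.013.

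Ncf1 (ENSMUSG00000015950), the organizer whose phosphorylation starts the assembly, lies on chromosome 5 at 134220053 to 134229625 on the minus strand, with 10 exons in its longest transcript. It had 298, 126, 108 and 125 CPM in HFD 1 to 4, and 107, 160, 169 and 161 CPM in CF 1 to 4. In each diet a single library stood apart, HFD 1 above the other 3 HFD libraries and CF 1 below the other 3 CF libraries. CF 2 to 4 were all above HFD 2 to 4, and CF 1 was the lowest of all. The log2 fold change was 0.14 (SE 0.33, edgeR adjusted p = 0.965, exact permutation p = 0.971), and it was -0.32 without HFD 1 and 0.0052 without CF 1. In the annotation 408 exon bases of Ncf1 are shared with Gtf2ird2 on the opposite strand, and whether the counting used strand is not stated. Gtf2ird2 had 6.11 to 22.1 CPM, below Ncf1 in every library.

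Ncf4 (ENSMUSG00000071715), whose product binds a phosphoinositide of the phagosome membrane, lies on chromosome 15 at 78244801 to 78262580 on the plus strand, with 10 exons in its longest transcript. It had 62.4, 18.6, 16.6 and 16.9 CPM in HFD 1 to 4, and 19.6, 30.6, 30.2 and 27.7 CPM in CF 1 to 4. HFD 1 was 2.04 times the next library, while the other 3 HFD libraries were the 3 lowest of all and below every CF library. HFD 2 to 4 were close to each other, at 17.4 ± 1.06 CPM (SD, n = 3). The fit over all 8 libraries gave a log2 fold change of 0.08 (SE 0.44, edgeR adjusted p = 0.984, exact permutation p = 0.886). Without HFD 1 it was -0.64 with an edgeR adjusted p of 0.107, the lowest that Ncf4 had in any of the settings, and without CF 1 it was -0.045.

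Rac2 (ENSMUSG00000033220), the Rac GTPase of blood cells, lies on the same chromosome 15 at 78559167 to 78572783 on the minus strand, 296586 bases from Ncf4, with 7 exons in its longest transcript. It had 311, 187, 183 and 200.4 CPM in HFD 1 to 4, and 160, 215, 198 and 183 CPM in CF 1 to 4. It varied least, 1.95-fold from the lowest to the highest library, and HFD 2 to 4 lay within the range of CF. The log2 fold change was 0.22 (SE 0.19, edgeR adjusted p = 0.844, exact permutation p = 0.429). It stayed above 0 in all 20 settings, between 0.012 without HFD 1 and 0.40 with library size as the only scaling, a scaling that moved the median of all genes from 0.055 to 0.248.

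**Figure D1:**
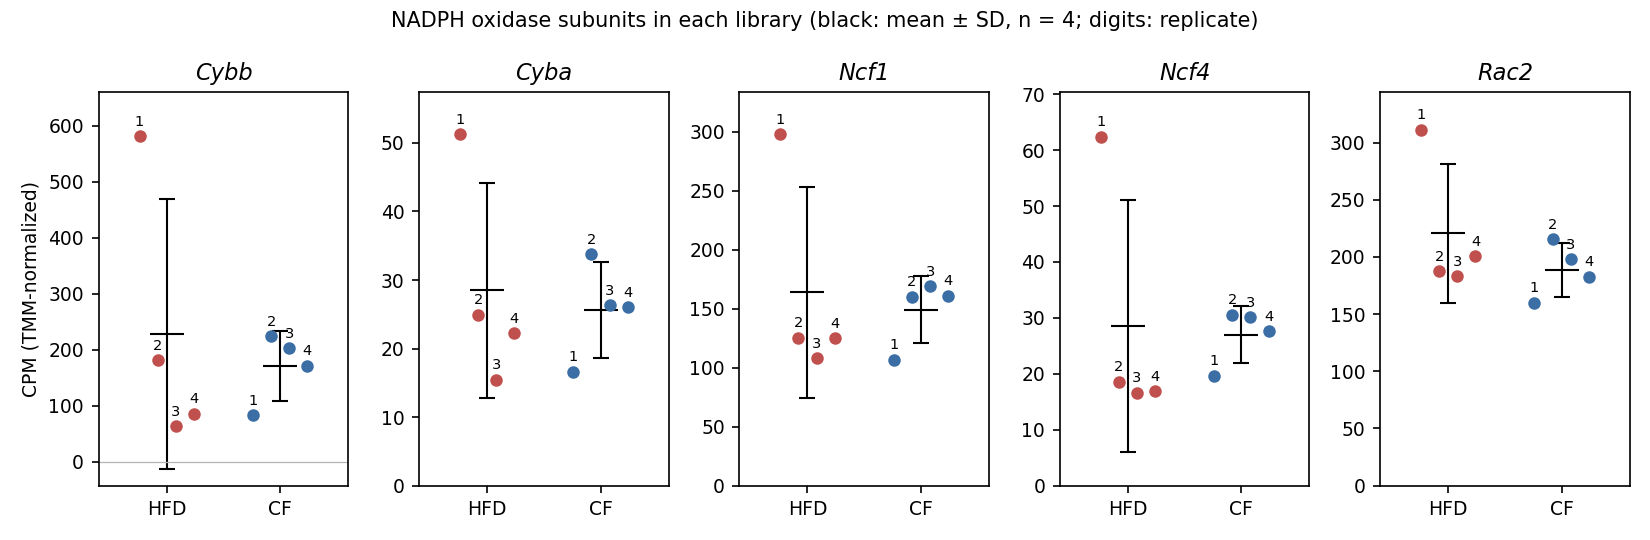
CPM (TMM-normalized) of Cybb, Cyba, Ncf1, Ncf4 and Rac2 in each HFD (red) and CF (blue) library, with the replicate number above each point and black bars for mean ± SD (n = 4); each panel has its own axis. HFD 1 is the highest point in all 5 panels, and HFD 2 to 4 lie below every CF library for Ncf4 alone.

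Levels of different genes were compared per kb of exons. Rac2 was the most abundant subunit transcript at 66.0 ± 14.8 CPM per kb (SD, n = 8 libraries of both diets), followed by Ncf1 at 42.8 ± 16.9, Cybb at 34.3 ± 28.6, Cyba at 26.1 ± 10.9 and Ncf4 at 13.8 ± 7.50 CPM per kb. In these libraries the 5 genes ranked high, from the 90.5th percentile of the 11913 protein-coding genes of the table for Ncf4 to the 98.4th for Rac2. Rac2 was above Ncf1 in 8 of 8 libraries and Cyba above Ncf4 in 8 of 8 (exact sign-flip test over libraries, two-sided, p = 0.00781 for both, the smallest this test can give, adjusted over 4 neighbours p = 0.0156). Ncf1 was above Cybb in 7 of 8 libraries, HFD 1 being the exception (exact p = 0.0313, adjusted p = 0.0417). The partners of the flavocytochrome, Cybb and Cyba, were neighbours that could not be told apart. Their mean log2 ratio was 0.15 ± 0.51 (SD, n = 8), with Cybb the higher in 5 of 8 libraries (exact p = 0.43), and with the longest transcript as length Cyba came before Cybb. Leaving out 1 library kept this order in each case, but with 7 libraries only 2 of the 4 neighbours differed, except without HFD 1, where 3 did.

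**Figure D2:**
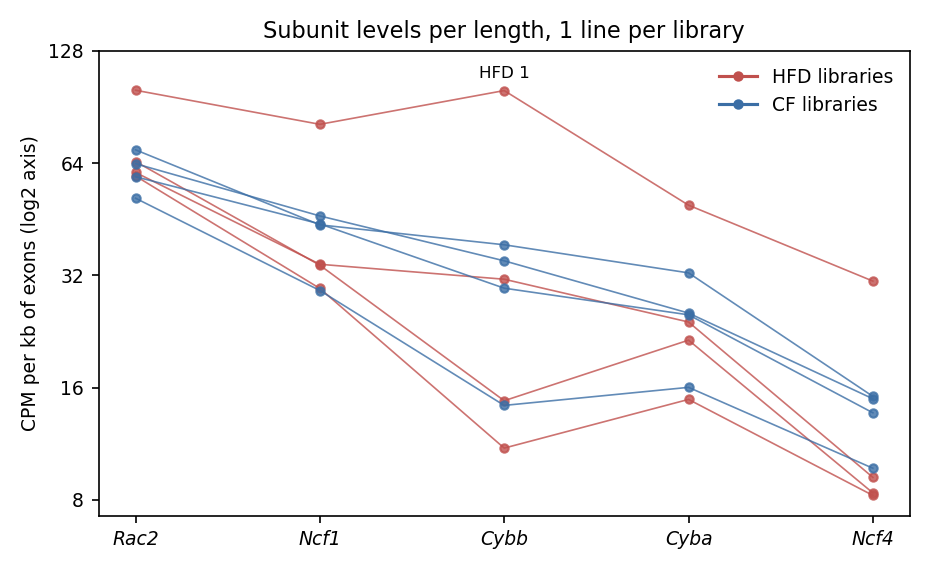
Level of each subunit in CPM per kb of exons (log2 axis), with 1 line per library in red for HFD and blue for CF. Rac2 is on top and Ncf4 at the bottom in all 8 lines, Cybb has the widest spread, and in HFD 1 Cybb rises to the level of Rac2.

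Since the subunits act as a complex, ratios within a library were taken for the 10 pairs, which do not depend on scaling between libraries. None of the 10 differed between HFD and CF (exact permutation tests, adjusted p = 0.914 for each), and all 10 overlapped between diets. The steadiest ratio over the 8 libraries was that of Cyba to Ncf1, with an SD of 0.19 on the log2 scale, and the least steady that of Cybb to Rac2, with an SD of 0.80. The log2 ratio of Cybb to Rac2 was -0.0024, -0.95, -2.42 and -2.13 in HFD 1 to 4, and -1.85, -0.85, -0.87 and -0.99 in CF 1 to 4. Cybb was thus equal to Rac2 per kb in HFD 1 and far below it in HFD 3, HFD 4 and CF 1. The balance of the membrane core to its GTPase varied more within each diet than between the diets, with a difference of -0.24 between the diet means (exact permutation p = 0.714).

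Rac1, the relative of Rac2 that is found in most tissues, can also serve the oxidase. Rac2 made up 76.2%, 66.5%, 69.8% and 69.4% of Rac1 plus Rac2 (per kb) in HFD 1 to 4, and 63.2%, 67.0%, 67.0% and 68.3% in CF 1 to 4. Rac2 was the main form in every library. The mean share was 70.5% ± 4.11 in HFD and 66.4% ± 2.20 in CF (SD, n = 4), which did not pass the exact permutation test (two-sided, p = 0.114). The difference was 4.09 percentage points with all libraries, 2.18 without HFD 1 and 5.43 without HFD 2, where the exact test gave p = 0.0286. The longest transcripts of Rac2 and Rac1 were at most 82.2% identical over an aligned stretch of 152 bases, and the reads had been kept only where they mapped to a single place.

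Pearson's r of log2 CPM between pairs of subunits was between 0.82 for Cybb with Rac2 and 0.97 for Ncf1 with Ncf4 over the 8 libraries, which share the high value of HFD 1. Without HFD 1 the same 10 values were between 0.41 for Ncf4 with Rac2 and 0.92 for Cybb with Cyba. With each diet centred at its own mean they were between 0.90 and 0.98. Without HFD 1 the membrane partners Cybb and Cyba were the closest pair, ahead of Ncf1 with Ncf4 at 0.91, and the pairs with Rac2 were the loosest. Over all 8 libraries, and with each diet centred, Ncf1 with Ncf4 was the closest, and Ncf4 with Rac2 reached 0.96 when centred. The order of the pairs thus depended on the view, and differences between them were not tested.

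The promoters of 3 of the 5 genes were found among RefSeq entries (GRCm38.p6), and these 3 are shown. The 3 genes had r between 0.94 and 0.96 with each other, and a link of r to the promoters was not tested. Each sequence holds the 250 bases before the RefSeq start of the gene, from 5′ to 3′ on the minus strand. They lie at chrX:9469325-9469574 for Cybb, at chr8:122432941-122433190 for Cyba and at chr5:134229626-134229875 for Ncf1. The RefSeq start of Cybb lies within the GENCODE span of the gene, which reaches further upstream. Capitals mark matches, on either strand, to GAAANNGAAA (a repeat that factors of the IRF family can bind), CCAAT and GGCGGG (the core of a GC box).
Cybb: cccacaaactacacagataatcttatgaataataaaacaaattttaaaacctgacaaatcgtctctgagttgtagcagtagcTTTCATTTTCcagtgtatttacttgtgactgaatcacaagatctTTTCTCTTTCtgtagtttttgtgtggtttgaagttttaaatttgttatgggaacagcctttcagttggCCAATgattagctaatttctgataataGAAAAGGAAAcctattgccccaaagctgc
Cyba: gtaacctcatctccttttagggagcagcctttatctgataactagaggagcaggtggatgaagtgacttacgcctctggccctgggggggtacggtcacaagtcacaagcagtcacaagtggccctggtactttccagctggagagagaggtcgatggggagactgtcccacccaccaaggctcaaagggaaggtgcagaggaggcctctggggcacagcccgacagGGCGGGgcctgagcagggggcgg
Ncf1: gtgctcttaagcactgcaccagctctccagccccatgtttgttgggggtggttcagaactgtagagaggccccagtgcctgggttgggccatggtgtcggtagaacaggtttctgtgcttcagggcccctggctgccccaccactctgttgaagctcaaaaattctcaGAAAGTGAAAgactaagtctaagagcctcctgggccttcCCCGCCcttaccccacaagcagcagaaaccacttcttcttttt

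GAAANNGAAA matched 3 times in the promoter of Cybb, with the match beginning 168, 124 and 29 bases before the start, and once in that of Ncf1, 82 bases before the start. It was held by 2.98% of 32851 promoter windows of this length. Cybb also had a CCAAT match 56 bases before the start, as did 33.9% of windows, and Cyba and Ncf1 each had a GGCGGG match, 23 and 43 bases before the start, as did 32.5% of windows. GAGGAA, a core that the ETS factor Spi1 (PU.1) can bind, was in 23.3% of windows and in none of these 3. The window of Cybb held 34.0% G and C, and those of Cyba and Ncf1 60.0% and 54.4%. The matches are a description of letters, and binding was not measured.

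Cybb, Cyba, Ncf1 and Ncf4 followed the neutrophil genes, and the relation of Rac2 did not pass. Over the 8 libraries, r with the mean log2 CPM of the neutrophil list was 0.957 for Cybb, 0.882 for Cyba, 0.916 for Ncf1 and 0.955 for Ncf4 (exact permutation over all pairings of the libraries, p = 0.00117, 0.00513, 0.00144 and 0.000372, adjusted over 25 relations p = 0.00719, 0.0160, 0.00719 and 0.00465). Spearman's rho was 0.905, 0.929, 0.833 and 0.952 (exact permutation p = 0.00456, 0.00223, 0.0154 and 0.00114, adjusted over 25 relations p = 0.0143, 0.0112, 0.0350 and 0.0112). Without HFD 1 and HFD 4, the 2 libraries farthest from the median of the list, r was 0.941, 0.927, 0.959 and 0.936, so that the relation did not rest on them. Within the diets, n = 4 each, r was between 0.928 and 0.977 in HFD and between 0.926 and 0.994 in CF. For Rac2 the values were r = 0.722 and rho = 0.524 (exact permutation p = 0.0425 and 0.197, adjusted over 25 relations p = 0.0871 and 0.351). Its r was 0.622 without those 2 libraries, and within the diets it was 0.895 in HFD and 0.873 in CF. With each diet centred at its mean, r was 0.887 for Rac2 and between 0.92 and 0.98 for the other subunits, so that Rac2 stood less apart.

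Many other genes followed the same list. Of 7213 protein-coding genes compared, 2.61% had a higher r with it than Cybb, 2.75% than Ncf4, 5.25% than Ncf1, 7.25% than Cyba and 16.0% than Rac2, and the median r was -0.03. S100a9, a calcium-binding protein abundant in neutrophils and the gene of the list with the highest mean CPM per kb, had 5110, 939.9, 369 and 283 CPM in HFD 1 to 4 and 496, 1915, 1627 and 1588 CPM in CF 1 to 4. Its span was wider than that of any subunit, but with the same library on top. Of the 15 neutrophil genes 0 passed between diets in edgeR, DESeq2 or limma and 0 had an unadjusted p below 0.05, counts near the background (0.423% of all genes in edgeR, 3.6% in DESeq2 and 8.56% unadjusted). Their log2 fold change was above 0 in 14 of 15, beside 59.7% of all genes, with a median of 0.39. Without HFD 1 it was above 0 in 0 of 15, with a median of -1.39 beside 0.029 over all genes, so that the sign of the list rested on this library.

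**Figure D3:**
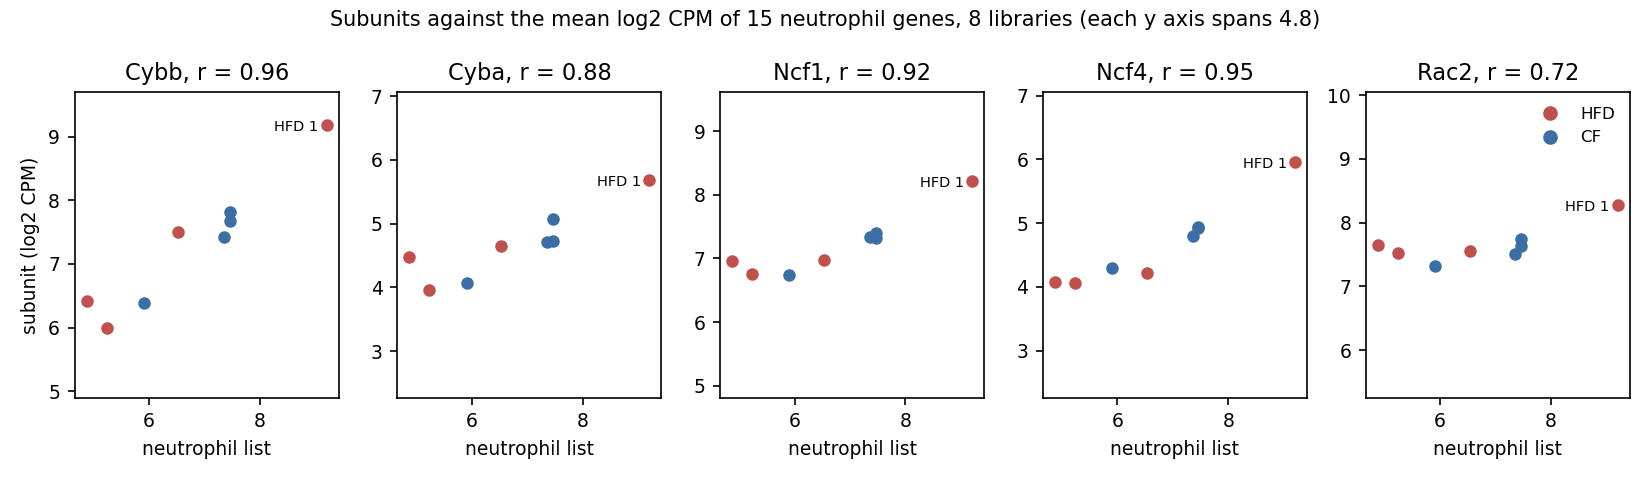
Log2 CPM of each subunit against the mean log2 CPM of 15 neutrophil genes, 1 point per library (HFD red, CF blue, n = 8), with every y axis spanning the same range of log2 values. The points of Cybb, Cyba, Ncf1 and Ncf4 rise along the list in both colours, with r from 0.88 to 0.96, and those of Rac2 are flatter.

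Other lists were set beside the subunits in the same way. With 8 genes of granulocyte progenitors, such as Mpo, which encodes myeloperoxidase, r was 0.965 for Cybb, 0.888 for Cyba, 0.910 for Ncf1 and 0.946 for Ncf4 (exact permutation, adjusted over 25 relations p = 0.00537, 0.0147, 0.00971 and 0.00465). Spearman's rho was 0.881, 0.905, 0.881 and 0.929 in the same order. Rac2 did not pass, with r = 0.756 and rho = 0.476 (exact permutation, adjusted over 25 relations p = 0.0710 and 0.380). The monocyte and macrophage list, led by Lyz2, followed Cybb (r = 0.869) and Cyba (r = 0.847, exact permutation, adjusted p = 0.0198 for both), and its r with Ncf1, Ncf4 and Rac2, 0.704, 0.717 and 0.545, did not pass after adjustment. By rho, this list passed with Cybb (0.952), Cyba (0.929) and also Ncf4 (0.905; exact permutation, adjusted over 25 relations p = 0.0112, 0.0112 and 0.0143), so that the rho of Cybb with it was above that with the neutrophil list, a difference that was not tested. With the conventional DC list r was between -0.774 for Rac2 and -0.569 for Ncf4, and with the plasmacytoid DC list between -0.629 for Ncf4 and -0.124 for Rac2, none of which passed. By ranks, Spearman's rho with these lists was between -0.238 and 0.190 and between -0.476 and 0.452, and r with the conventional DC list without HFD 1 and CF 2, the libraries farthest from its median, was between -0.629 for Rac2 and 0.304 for Ncf4, its sign turning for Ncf4 alone. Within HFD, n = 4, r was between -0.993 and -0.938 over the 5 subunits with the conventional DC list, and between -0.948 and -0.795 with the plasmacytoid DC list. Within CF, n = 4, the same values were between -0.435 and 0.129 and between 0.515 and 0.878, so that the sign of the latter was opposite in the 2 diets, a difference that was not tested. In all, 10 of the 25 relations passed by r. With each diet centred at its mean 21 passed, relations with the DC lists among them. Centring ties the 4 values of a diet together, so exact p-values over all pairings can be too small and this count too high. Centred r was between -0.90 and -0.74 with the conventional DC list and between -0.79 and -0.52 with the plasmacytoid DC list.

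When the mean of the neutrophil list was entered as a covariate in edgeR, none of the 5 subunits passed either. The log2 fold change of HFD against CF was then 0.39 for Cybb, 0.27 for Cyba, 0.23 for Ncf1, 0.12 for Ncf4 and 0.30 for Rac2 (edgeR adjusted p = 0.306, 0.530, 0.476, 0.767 and 0.265). All 5 were above 0, as in the fit without the covariate, where 59.7% of all genes were above 0. The 5 genes moved together over the libraries, so they do not count as 5 separate results. This fit called 4.19% of all genes, 663 in place of 67. The part of neutrophil RNA in the level of the subunits was not tested beyond this.

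Among the other marker lists no gene passed in edgeR. At an unadjusted p below 0.05, beside 8.56% of all genes, were 4 of 11 conventional DC, 5 of 8 plasmacytoid DC and 6 of 10 B cell genes, and 1 of 9 erythroid genes, the last near the background. DESeq2, with 3.6% of all genes, called Cd74 and H2-Aa lower in HFD (adjusted p = 0.00880 and 0.0272), and Spib, Ccr9, Siglech and Cd79a higher (adjusted p = 0.000850, 0.00305, 0.00952 and 0.0257). Limma voom with sample quality weights, with 1.78% of all genes, also called Spib, Ccr9 and Siglech of the plasmacytoid DC list (adjusted p = 0.0402, 0.0314 and 0.0436). The gene of highest mean CPM per kb was Cd74 for conventional DCs, at 153 ± 45.2 CPM in HFD and 331 ± 129 CPM in CF, and Ly6d for plasmacytoid DCs, at 66.6 ± 38.9 and 28.6 ± 6.82 CPM (SD, n = 4). B cell genes were led by Ighm, with 512 ± 150 and 319 ± 67.8 CPM, and the erythroid genes by Hbb-bt, with 35.4 ± 29.7 and 20.1 ± 3.71 CPM. All 9 erythroid genes were highest in HFD 1, the library in which the subunits were highest. Genes of eosinophils, basophils and mast cells summed to at most 77.2 CPM and those of T and NK cells to at most 28.4 CPM in any library, with Mcpt8 (9.84 ± 6.59 and 9.79 ± 4.36 CPM) and Nkg7 (13.4 ± 7.83 and 14.2 ± 3.28 CPM) in the lead.

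Other parts of the same enzyme were taken from a list of 8 genes, of which 7 were in the table, Rac3 not being among them, and 0 of 7 passed with edgeR (0.423% of all genes), DESeq2 (3.6%) or limma voom (0.442%, and 1.78% with quality weights), a count near the background. Hvcn1, the proton channel that balances the charge moved by the oxidase, had 63.1, 34.1, 24.9 and 34.3 CPM in HFD 1 to 4 and 16.6, 26.9, 24.2 and 22.6 CPM in CF 1 to 4. Its diets overlapped only through HFD 3 and CF 2, and its log2 fold change of 0.79 (SE 0.28) had an unadjusted p of 0.0208 and an edgeR adjusted p of 0.394. Cybc1, a chaperone of the flavocytochrome, had 35.9 ± 6.72 CPM in HFD and 34.0 ± 1.46 CPM in CF (SD, n = 4). The other small GTPases were also close between diets, with 130 ± 11.4 and 138 ± 13.1 CPM for Rac1, 62.8 ± 24.2 and 61.7 ± 8.21 CPM for Rhog, 237 ± 32.3 and 229 ± 23.4 CPM for Cdc42, and 49.0 ± 5.54 and 50.3 ± 4.10 CPM for Rap1a. Prdx6, a peroxiredoxin with phospholipase activity, had 28.3 ± 11.5 and 27.6 ± 1.41 CPM. Of 9 genes of the other NADPH oxidases and their organisers (Nox1, Nox3, Nox4, Noxo1, Noxa1, Duox1, Duox2, Duoxa1 and Duoxa2) none was in the table, so that the phagocyte form was the one whose transcripts could be described.

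Of 10 Rac exchange factors and GDP dissociation inhibitors 0 passed with edgeR, DESeq2 or limma (at most 3.6% of all genes), and 0 had an unadjusted p below 0.05 (8.56% of all genes). Vav3, which loads Rac with GTP, had a log2 fold change of -0.20 (SE 0.12) and Tiam1, another such factor, -0.27 (SE 0.16), with edgeR adjusted p of 0.762 and 0.768. Of 14 kinases and lipid enzymes found in the table none passed in edgeR (0.423% of all genes), and 1 had an unadjusted p below 0.05, a share near the 8.56% of all genes. Prkca, a protein kinase C, had 15.1, 17.6, 21.0 and 19.2 CPM in HFD 1 to 4 and 11.6, 9.26, 14.9 and 11.1 CPM in CF 1 to 4, so that its diets did not overlap, as in 6.16% of all genes. Its log2 fold change was 0.64 (SE 0.17), with an unadjusted p of 0.00443 and an edgeR adjusted p of 0.174. DESeq2 gave it an adjusted p of 0.0395, and it passed with neither limma fit. Unlike the subunits it was not highest in HFD 1. Pak1, a kinase that Rac activates, had -0.28 (SE 0.17, edgeR adjusted p = 0.764).

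Of 11 transcription factors known to act on subunit genes 0 passed with edgeR, DESeq2 or limma (at most 3.6% of all genes) and 0 had an unadjusted p below 0.05 (8.56% of all genes), and their median log2 fold change was -0.02. Cebpa had -0.37 (SE 0.25) and Irf8, a factor of DC progenitors, 0.34 (SE 0.26), with edgeR adjusted p of 0.797 and 0.830. Spi1, which encodes PU.1, had 51.6 ± 14.7 CPM in HFD and 52.3 ± 10.4 CPM in CF (SD, n = 4; named here after its values were seen). Of 14 enzymes that use or remove superoxide and hydrogen peroxide 0 passed with these tools and 0 had an unadjusted p below 0.05, beside the same shares of all genes. The lowest p in this list belonged to Gpx4, a lipid peroxidase with a log2 fold change of 0.31 (SE 0.18), and Prdx2, a peroxiredoxin with 0.36 (SE 0.22), with edgeR adjusted p of 0.748 and 0.767.

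The genes most like each subunit were sought by r of log2 CPM over the 8 libraries among 7226 protein-coding genes with a mean log2 CPM of at least 3. For Cybb they were Pirb, Dstn and G6pdx, with r between 0.991 and 0.994, G6pdx being an enzyme that makes NADPH. For Cyba they were Smap1, Flot2 and Atp6v1e1 (r of 0.984, 0.980 and 0.977), for Ncf1 Atg9a, Sidt2 and R3hdm4 (0.994, 0.992 and 0.989), for Ncf4 Tcn2, Mxi1 and Vasp (0.996, 0.995 and 0.995), and for Rac2 Qsox1, Rab21 and Itm2b (0.990, 0.986 and 0.981). No subunit was among the 3 genes most like another subunit. The closest was Cybb for Cyba, at place 18 of 7226, and from the side of Cybb, Cyba stood at place 77. Ncf4 stood at place 34 for Ncf1 and Ncf1 at place 40 for Ncf4, whereas Rac2 stood at place 823 for Cybb. All of these r include HFD 1, the highest library for each subunit, and the ranking was not repeated without it.

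**Figure D4:**
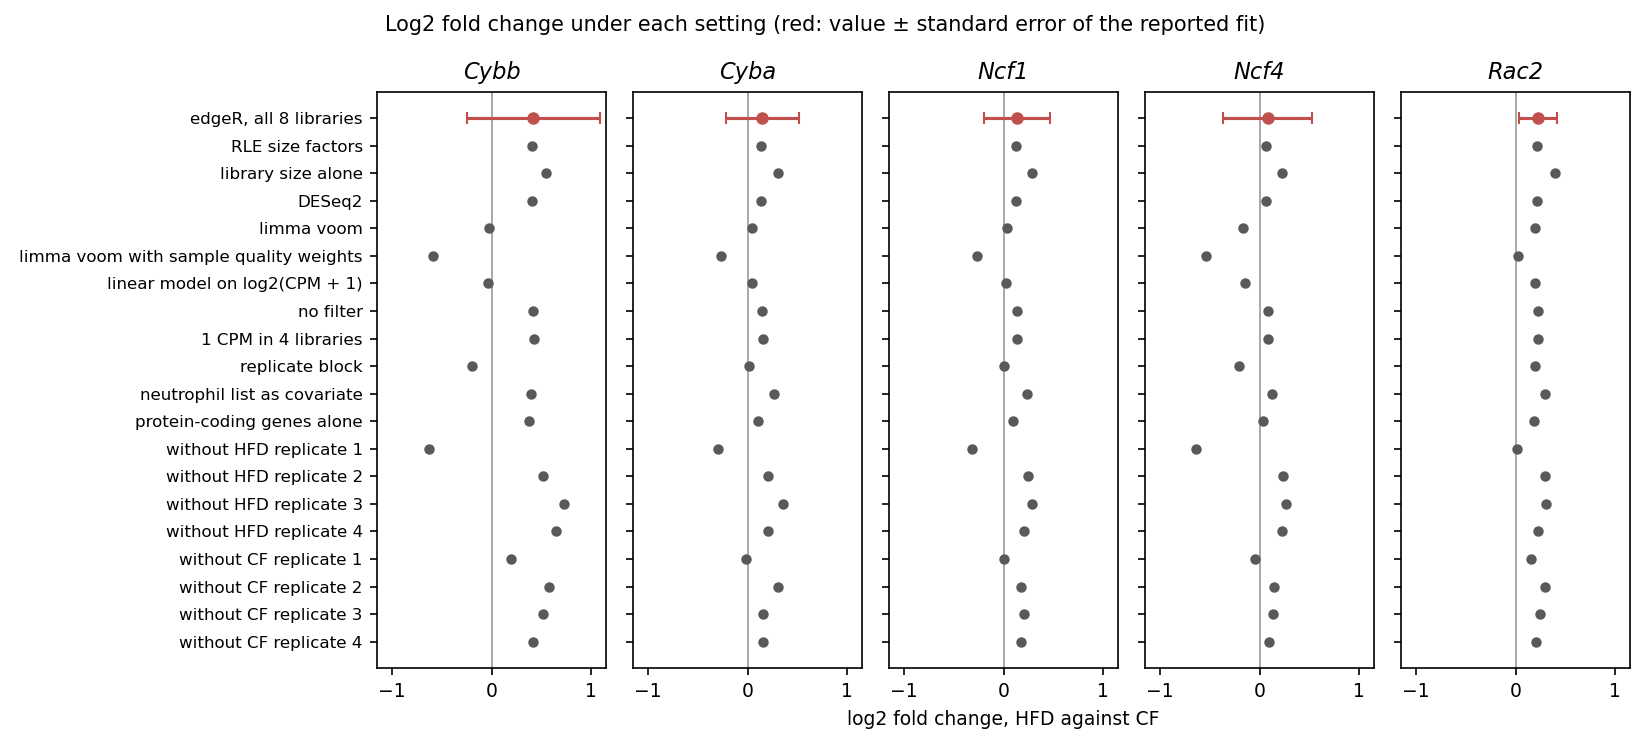
Log2 fold change of each subunit, HFD against CF, in the fit over all 8 libraries (red, ± SE) and in 19 other settings (grey), with the vertical line at 0. The grey points of Cybb, Cyba, Ncf1 and Ncf4 lie on both sides of 0, far to the left without HFD 1, and those of Rac2 are all above 0.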

How the data were processed

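RNA of CDPs from 4 HFD and 4 CF samples had been amplified with the NuGen Ovation Solo kit, and the authors aligned reads to GRCm38 with HISAT2, kept uniquely mapped pairs and estimated raw read counts with StringTie on GENCODE genes; FastQC and cutadapt are also in the submitters' processing notes, and no versions are given. The deposited table holds these counts per gene, without normalization, and its column labels were matched to the samples by their sample number. Genes were matched by identifier to GENCODE vM21 (16067 of 16119). Counts were filtered by filterByExpr (15837 genes kept), normalized by TMM and compared in R 4.3.3 with edgeR 4.0.16 (robust quasi-likelihood, diet only, Benjamini-Hochberg over all genes, threshold 0.05). Log2 CPM had a prior count of 2. Single values were compared by exact two-sided permutation tests in scipy 1.17.1 (70 splits of 4 against 4, smallest p 0.0286). Alternatives used DESeq2 1.42.0, limma 3.58.1, other scalings, filters and terms, and each library left out. The scripts were tested on simulated data.

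The subunits and lists were chosen with earlier results of these data known. Besides the subunits, the text names every gene in the table from the list of other oxidase parts, the 2 genes of lowest p and any gene called in edgeR of each other pathway list, the gene of highest mean level and any gene called in edgeR of each marker list, and the 3 genes most like each subunit. Marker genes called with another tool are named as well. One gene covered by this rule is not reported here.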

Additional observations from a re-analysis of the deposited data

Results flagged for a closer look

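In 42 groups of 4 libraries (5 subunits, 10 ratios, the Rac2 share and the means of 5 marker lists, by diet), 7 held a library whose distance to the others was over Dixon's 95% limit. For a single group chance gives about 1 in 20. The groups share libraries and genes, so the 7 are not independent and no excess over chance can be read from them. In HFD 1 this was the log2 CPM of Ncf1 (8.22, beside 6.76 to 6.97 in the other HFD libraries), of Ncf4 (5.96, beside 4.06 to 4.22) and of Rac2 (8.28, beside 7.52 to 7.65). In CF 1 it was Ncf1 on the low side (6.74, beside 7.32 to 7.40), the mean log2 CPM of the neutrophil list (5.91, beside 7.36 to 7.46) and the log2 ratio of Cybb to Rac2 (-1.85, beside -0.99 to -0.85). The last was the log2 ratio of Cyba to Ncf1 in CF 2 (-0.43, beside -0.87 to -0.81). The libraries of Cybb were too spread out within HFD for HFD 1 to pass this limit, although it was 2.59 times the next library.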

How the results depend on the processing

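No subunit passed the threshold in any of 19 other settings, although the count over all genes went from 67 to 0 with the linear model, the replicate block or protein-coding genes alone, to 108 with library size alone, 282 with limma voom and quality weights, 567 with DESeq2 and 663 with the neutrophil covariate, and was between 0 and 200 with 1 library left out (200 without HFD 1). The direction was less stable, and its cause was not tested. With limma voom Cybb was at -0.031 and Ncf4 at -0.17. With sample quality weights Cybb was at -0.59, Cyba at -0.27, Ncf1 at -0.27 and Ncf4 at -0.54. With the linear model on log2(CPM + 1) Cybb was at -0.041 and Ncf4 at -0.14. With the replicate block Cybb was at -0.20 and Ncf4 at -0.20. Same-numbered libraries did not deviate together over all genes (r between -0.44 and -0.08). These values cannot show whether the libraries were prepared as pairs, and the methods name no pairing. With 1 library left out, Cybb ranged from -0.63 to 0.73, Cyba from -0.30 to 0.35, Ncf1 from -0.32 to 0.29 and Ncf4 from -0.64 to 0.27, the lowest always without HFD 1. The difference in the Rac2 share ranged from 2.18 to 5.43 points, past the threshold without HFD 2. With each diet centred, 21 relations to marker lists passed in place of 10, a count that may be too high because centring ties the values of a diet together. With 4 libraries per diet and an SE of 0.67 for Cybb, differences smaller than the spread of HFD could not be seen.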
